A study of Mus musculus with 6 samples.

Results

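Microglia are the resident macrophages of the brain, and the 35 genes described here are transcripts by which they and related macrophages are recognised. They were taken by symbol from a list of named genes. All 35 of 35 were among the 24421 genes listed in the count tables, and all 35 were among the 15906 genes tested. They were measured by poly(A) RNA-seq in 6 mouse libraries labelled as oligodendrocyte progenitor cells (OPCs), the precursors of myelin-forming cells. The control group held 3 libraries from Prrc2b f/f mice, in which both Prrc2b alleles are floxed. The knockout group held 3 libraries from Prrc2b f/f; Olig2-Cre mice, so floxed Prrc2b alleles were common to both groups. Cre expression followed Olig2, a transcription factor of the oligodendrocyte lineage. No library had Olig2-Cre without floxed alleles, so effects of the Cre and of Prrc2b loss cannot be told apart. Per the labels' protocols, cortical cells of C57BL/6J pups at postnatal day 4 passed over dishes coated with IgG and GalC antibody. Those that bound to an O4 dish were then cultured in a medium with PDGF-AA and bFGF. Each group holds replicates numbered 1, 2 and 3, and the labels do not say what a number marks. Nothing says that replicates came from separate animals, and the spread that p-values measure may therefore be technical. The series' own design text speaks of brain tissue in place of isolated cells.

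Microglia descend from yolk sac progenitors and depend on the receptor encoded by Csf1r, whose ligands are CSF1 and IL-34. They survey the tissue with purine and chemokine receptors, engulf debris into lysosomes and make the complement component C1q, which tags synapses and debris for removal. In the early postnatal brain they also gather in developing white matter, near the cells that will form myelin. Border macrophages of the meninges and perivascular spaces share many of these genes and are marked by others such as Mrc1 and Pf4.

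The label of the samples was checked against markers of both cell types. The 5 OPC markers Pdgfra, Cspg4, Olig1, Olig2 and Sox10 summed to between 541 and 1386 CPM (counts scaled to library size with TMM factors) over the 6 libraries. The 6 microglial markers Cx3cr1, P2ry12, Tmem119, Csf1r, C1qa and Aif1 summed to between 8.44 and 160.0 CPM, and 0 of them were at 0 in any library. Neuronal transcript was abundant too. In longer lists, 18 neuronal markers summed to 4029 to 6595 CPM and 18 OPC and oligodendrocyte markers to 2994 to 5897 CPM. Prrc2b, the targeted gene, read 932, 1111 and 925 CPM in control libraries 1, 2 and 3 and 649, 824 and 757 CPM in knockout libraries 1, 2 and 3, so it was lower in every knockout library. Gene counts per library ranged from 26015604 to 28114968, of which the 35 genes held 3895 to 35217. The libraries numbered 1 stood apart from the other 4 in these genes, and the test by genotype is therefore also given without them.

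Several of these genes are known targets of PU.1, the transcription factor encoded by the member Spi1, which binds purine-rich DNA around the letters GAGGAA. The promoters of the members were searched for that word, and a link between the word and levels in these libraries was not tested. The RefSeq promoter table of GRCm38.p6, which runs from 250 bases before to 50 bases after each start, had 29 entries for 26 of the 35 genes. On either strand, GAGGAA was in 17 of 29 member promoters (58.6%) and in 28.3% of all 32851 promoters of the same length. The longer word GAGGAAGT was in 5 of 29 (17.2%) against 3.2% of all, in the genes C1qc, Cd53, Ctss, Inpp5d and Pf4. For 3 further words that overlap it, the shares were 34.5% against 13.6% for GAGGAAG, 41.4% against 9.35% for AGGAAGT and 31.0% against 11.0% for GGAAGTG. These are letter matches and not measured binding sites. The promoters of C1qc (chr4:136892865-136893164, minus strand), Ctss (chr3:95526536-95526835, plus strand) and Cd53 (chr3:106790100-106790399, minus strand) are printed 5′ to 3′ as examples from 3 functional groups. Capitals mark the GAGGAAGT match, which lies on the opposite strand in each and so reads ACTTCCTC.
C1qc: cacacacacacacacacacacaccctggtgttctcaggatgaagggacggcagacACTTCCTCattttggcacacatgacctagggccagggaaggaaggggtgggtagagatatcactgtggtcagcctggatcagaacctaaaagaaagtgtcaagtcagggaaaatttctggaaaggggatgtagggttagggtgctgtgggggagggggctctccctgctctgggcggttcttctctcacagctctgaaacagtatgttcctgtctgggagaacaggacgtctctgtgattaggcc
Ctss: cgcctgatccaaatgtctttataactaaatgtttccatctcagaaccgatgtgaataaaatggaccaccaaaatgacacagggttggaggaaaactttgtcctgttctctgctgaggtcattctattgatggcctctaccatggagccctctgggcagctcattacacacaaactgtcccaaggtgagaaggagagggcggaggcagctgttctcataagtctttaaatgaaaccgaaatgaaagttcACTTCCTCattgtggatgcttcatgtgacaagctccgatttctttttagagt
Cd53: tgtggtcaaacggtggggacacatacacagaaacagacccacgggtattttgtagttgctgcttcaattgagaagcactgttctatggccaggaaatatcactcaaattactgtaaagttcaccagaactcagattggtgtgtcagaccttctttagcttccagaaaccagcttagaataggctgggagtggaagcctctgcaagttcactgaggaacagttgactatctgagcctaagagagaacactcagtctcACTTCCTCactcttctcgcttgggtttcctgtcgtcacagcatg
The first base of the match lies at position -195 from the start in C1qc, at -2 in Ctss and at 7 downstream of it in Cd53.

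The first comparison asked whether microglia and macrophage transcripts differed between knockout and control libraries. Summed levels were close within each same-numbered pair and differed widely between the numbers. Summed over the 35 genes, they reached 144, 1286 and 797 CPM in the control libraries and 151, 1253 and 927 CPM in the knockout libraries, each numbered 1, 2 and 3 in that order, which is used throughout. The knockout library's sum was 1.05, 0.974 and 1.16 times that of the control library with the same number. Single members varied more, from 0.0986 to 3.16 times control in number 1, 0.553 to 2.80 in number 2 and 0.879 to 2.55 in number 3. Group means were 742 ± 573 CPM for control and 777 ± 566 CPM for knockout (SD, n = 3 each), so the difference between groups was far smaller than the spread within either. In 0 of 35 genes did all knockout libraries lie on one side of all control libraries, where 6.34% of all tested genes were so separated. This count cannot decide on genotype. In 33 of 35 members both libraries numbered 1 lay below the other 4, as in 16.2% of all tested genes, which alone makes the groups overlap. The knockout library was higher in all 3 pairs for 7 members and lower in all 3 for 0, against 19.6% and 20.9% of all tested genes. In bulk RNA, fewer microglia and less RNA per microglial cell cannot be told apart.

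No member was called by genotype. The edgeR quasi-likelihood test called 0 of 35 members at an adjusted p under 0.05, with 0 at an unadjusted p under 0.05, and it also called 0% of the 15906 tested genes. DESeq2 called 0 members as well, and limma-voom 0. Standard errors of the log2 fold changes ranged from 0.43 to 1.41, with a median of 1.09. With a block for replicate number, which compares libraries of the same number, the median standard error was 0.16. That test again called 0 of 35 members, where 3.8% of all tested genes were called. At an unadjusted p under 0.05 stood 1 member, Cx3cr1, against 18.2% of all tested genes. The blocked log2 fold changes had a median of 0.09, with 25 positive and 10 negative, beside a median of 0.00 over all tested genes. Their 95% intervals lay wholly within a 2-fold change for 30 of 35 members, and for 13157 of all 15906 tested genes, a similar share. The balance of signs rested on the libraries numbered 3, since without them the blocked median was -0.01, with 17 of 35 positive. It was 0.10 with 30 positive without number 1 and 0.16 with 28 positive without number 2, and 0 members were called in each. With the block limma-voom called 0 of 35 members, and DESeq2 called 0 of the 32 members to which it gave an adjusted p, Aif1, Pf4 and Tmem119 having none.

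**Figure D1:**
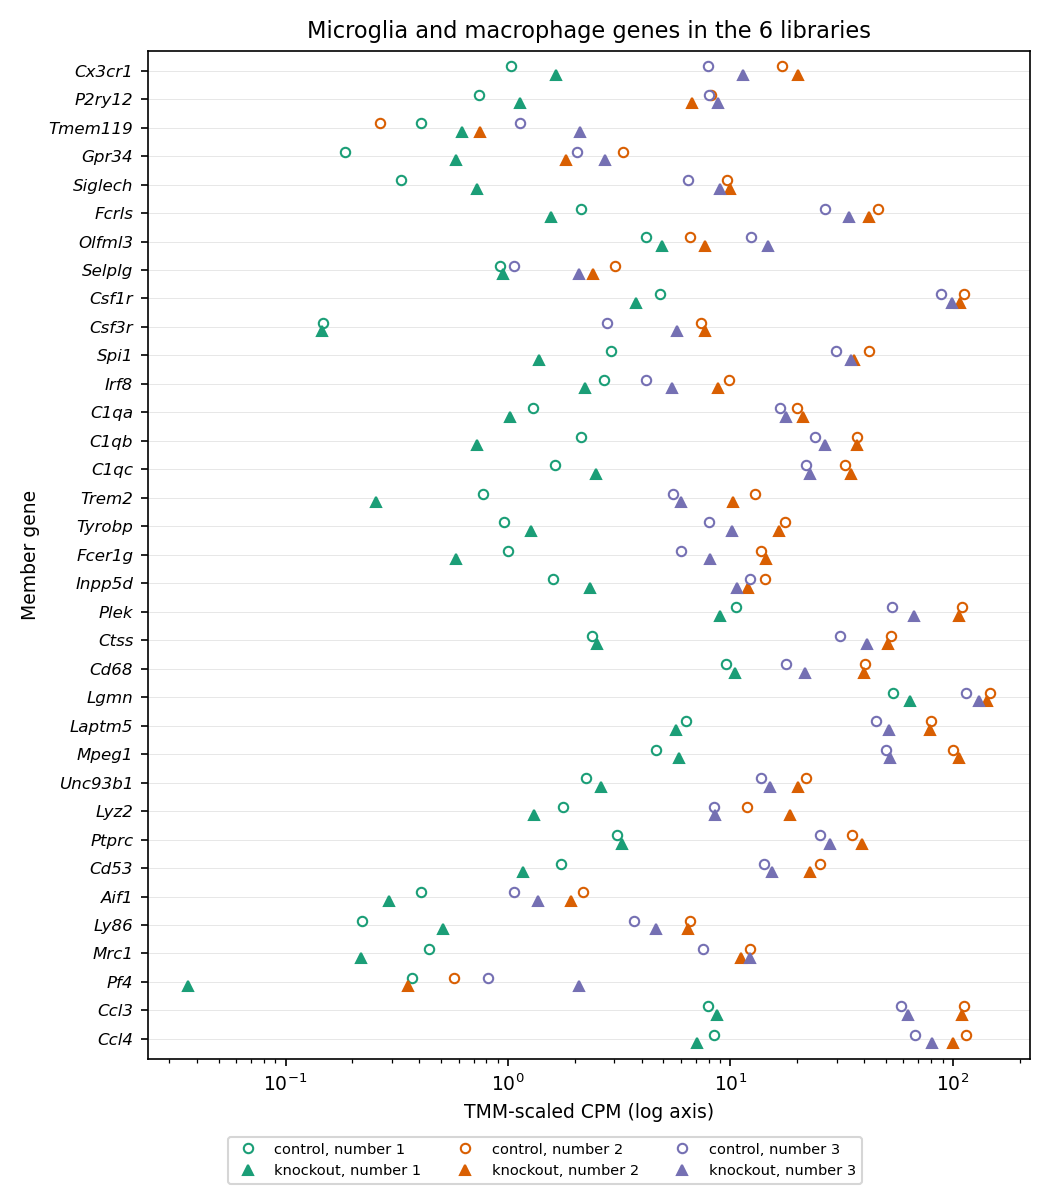
Level of each of the 35 member genes in each library, as TMM-scaled CPM on a log axis, with open circles for control and filled triangles for knockout libraries and 1 colour per replicate number. Symbols of one colour lie close together for most genes, and both libraries numbered 1 lie below the other 4 in 33 of 35 genes, against 16.2% of all tested genes.

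By replicate number, in contrast, every member was called in edgeR, and fewer were in some alternatives given below. The terms for replicate number in the blocked edgeR fit were called for 35 of 35 members, with adjusted p from 9.21e-08 (Csf1r, Ccl3 and Mpeg1) to 0.0476 (Pf4), where 51.2% of all tested genes were called. Each number holds only 2 libraries, 1 of each genotype. Between numbers 2 and 1, 33 members were higher in number 2, 0 were lower and 2 did not pass (Tmem119 and Pf4), with a median of 13.9-fold. Of all tested genes, 16.7% were higher and 15.4% lower in that comparison. Between numbers 3 and 1, 34 members were higher in number 3, 0 were lower and 1 did not pass (Selplg), with a median of 8.41-fold. There 18.2% of all tested genes were higher and 16.1% lower. Both libraries numbered 1 lay below the other 4 in 33 of 35 genes, as in 16.2% of all tested genes. Both libraries numbered 2 lay above the other 4 in 28 of 35, as in 18.6% of all tested genes. The test was chosen with these values known.

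**Figure D2:**
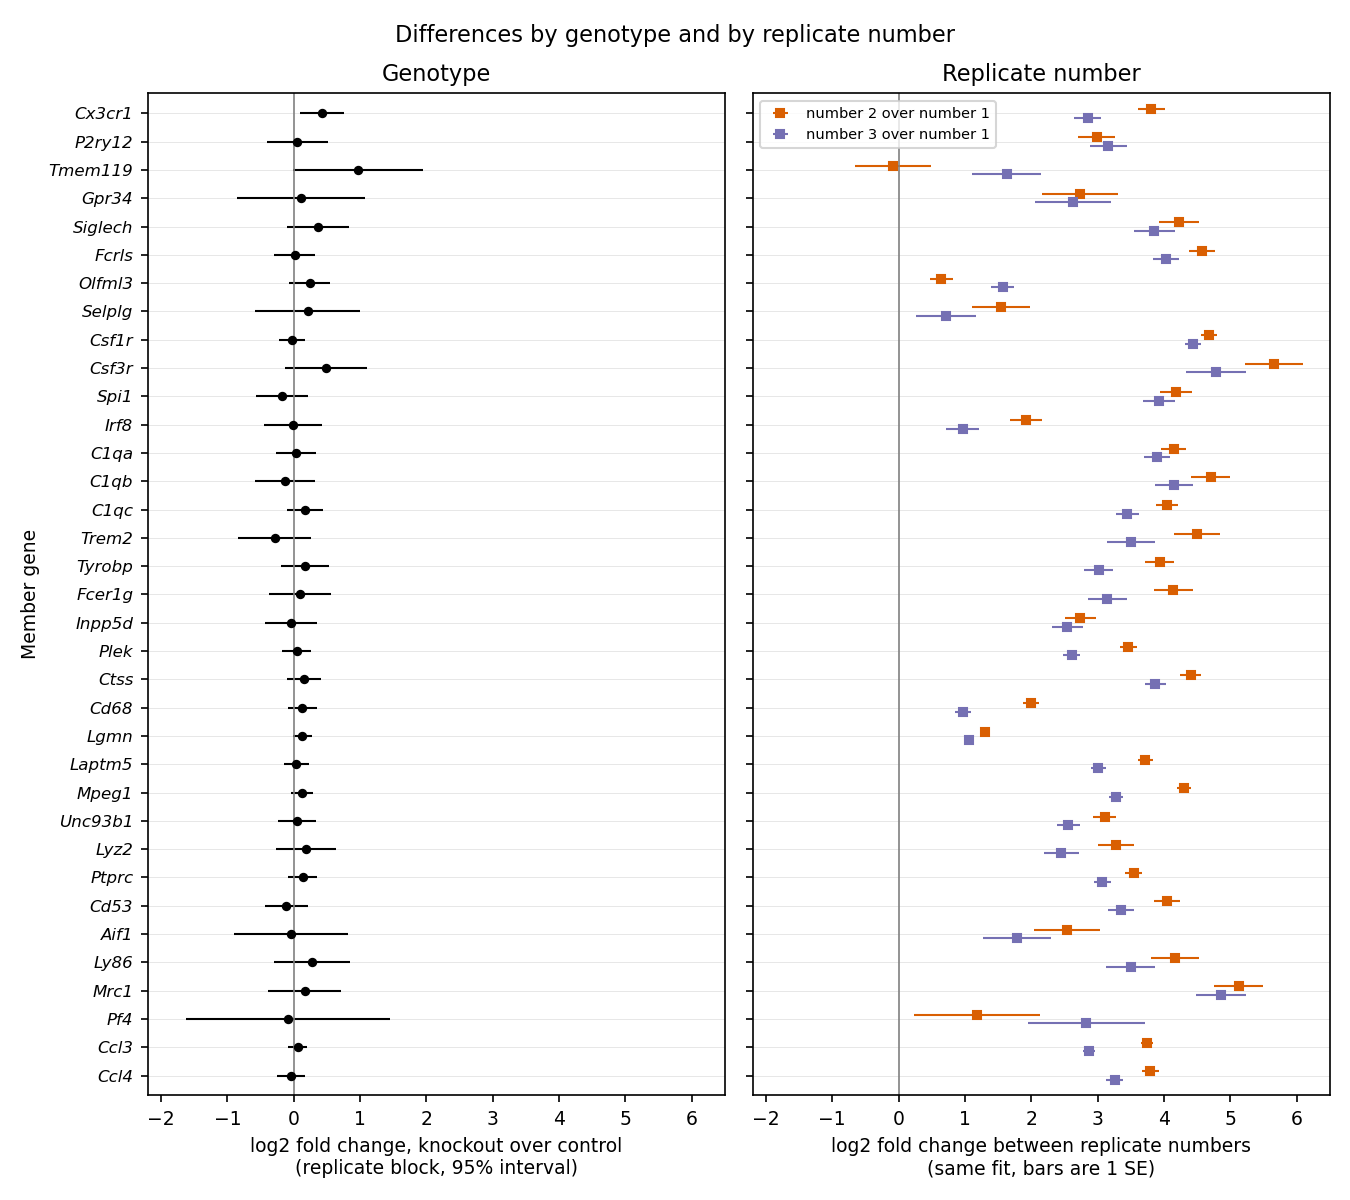
Left, blocked log2 fold change of each member, knockout over control, with its 95% interval. Right, log2 fold change of number 2 and of number 3 over number 1 from the same fit with bars of 1 SE, on the same axis range. Genotype values cluster near 0, and nearly all number values lie to the right of 0.

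Among the 8 genes of microglial surface and secreted products, identity receptors were present at low level and 0 passed the test by genotype. With the block, 3.8% of all tested genes passed it. Cx3cr1, the receptor for the neuronal chemokine fractalkine, lies on chromosome 9 from 119901616 to 120069879 on the minus strand of GRCm38. Cx3cr1 read 1.03, 17.0 and 7.92 CPM in the control libraries and 1.64, 20.1 and 11.4 CPM in the knockout libraries. It was higher in the knockout library of all 3 pairs, by 1.59, 1.18 and 1.44 times, while the groups overlapped. Its blocked change had the smallest p of the members and did not pass (log2 fold change 0.43, SE 0.15, edgeR adjusted p = 0.164, 95% interval 0.09 to 0.76). P2ry12, the purine receptor that guides microglial processes, lies on chromosome 3 from 59216272 to 59262871 on the minus strand. P2ry12 stood at 0.738, 8.16 and 7.99 CPM in the control libraries and 1.13, 6.69 and 8.80 CPM in the knockout libraries. Numbers 2 and 3 were not told apart (edgeR adjusted p = 0.591), and both lay well above number 1 in either genotype. Of its exon bases, 9 of 2546 are shared with Med12l on the opposite strand.

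Tmem119, a membrane protein used as a marker of mature microglia, was not ordered by number as the receptors above. Tmem119 stood at 0.406, 0.267 and 1.13 CPM in the control libraries and 0.619, 0.747 and 2.11 CPM in the knockout libraries, from counts of 11, 7 and 32 against 17, 21 and 56. It was highest in both libraries numbered 3, and numbers 1 and 2 were not told apart (0.946-fold, edgeR adjusted p = 0.933). The knockout library was higher in all 3 pairs and the groups overlapped. Its blocked change was the largest among the members and did not pass (log2 fold change 0.97, SE 0.44, edgeR adjusted p = 0.284, 95% interval -0.02 to 1.95). Olfml3, a secreted glycoprotein of microglia also made by other cells, was likewise highest in both libraries numbered 3. Olfml3 stood at 4.17, 6.56 and 12.4 CPM in the control libraries and 4.95, 7.69 and 14.7 CPM in the knockout libraries, and it was 1.90-fold higher in number 3 than in number 2 (edgeR adjusted p = 0.00182).

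The remaining identity genes were Fcrls, an Fc receptor-like protein, Siglech, a sialic acid-binding lectin, Gpr34, a lysophosphatidylserine receptor, and Selplg, the ligand of P-selectin. Fcrls was the most abundant per length of the 8, at 0.794, 18.9 and 13.03 CPM per kilobase of exon (RPKM) as means of the libraries numbered 1, 2 and 3. Siglech was 18.7-fold and Fcrls 23.8-fold higher in number 2 than in number 1, and Gpr34 6.66-fold. Selplg was 2.92-fold higher in number 2 than in number 1 (edgeR adjusted p = 0.0233), a smaller span than the other 3. Blocked log2 fold changes by genotype for the whole group of 8 ranged from 0.02 (Fcrls) to 0.97 (Tmem119). Of the 8, 0 passed, beside 3.8% of all tested genes.

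The growth factor receptor and transcription factor genes showed the widest range between numbers and no call by genotype. With the block, 3.8% of all tested genes were called by genotype. Csf1r, the receptor tyrosine kinase on which microglial survival depends, lies on chromosome 18 from 61100598 to 61132149 on the plus strand. Csf1r stood at 4.83, 113 and 88.1 CPM in the control libraries and 3.75, 107 and 98.7 CPM in the knockout libraries. Both libraries numbered 1 lay far below the other 4, and the groups overlapped. It was 25.6-fold higher in number 2 and 21.8-fold higher in number 3 than in number 1 (edgeR adjusted p = 5.93e-08 and 1.48e-07). By genotype its blocked change was close to 0 (log2 fold change -0.02, SE 0.09, edgeR adjusted p = 0.918, 95% interval -0.22 to 0.17). Hmgxb3, on the opposite strand, shares 15.1% of Csf1r exon bases, and the sources used here do not give the strand setting of the counting.

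Spi1, which encodes PU.1, the transcription factor that specifies myeloid cells, followed Csf1r. Spi1 stood at 2.92, 41.9 and 29.8 CPM in the control libraries and 1.38, 36.0 and 34.7 CPM in the knockout libraries. Its knockout libraries were at 0.474, 0.859 and 1.17 times the same-numbered controls, below 1 in numbers 1 and 2 and above 1 in number 3 (log2 fold change -0.18, SE 0.17, edgeR adjusted p = 0.653). Irf8, a partner of PU.1, was only 3.78-fold higher in number 2 than in number 1. Csf3r, the receptor for granulocyte colony-stimulating factor, had the largest span. Csf3r stood at 0.148, 7.36 and 2.79 CPM in the control libraries and 0.146, 7.69 and 5.74 CPM in the knockout libraries, the libraries numbered 1 holding 4 counts each. Number 2 was 50.7-fold above number 1 for Csf3r (log2 SE 0.44). The difference by genotype did not pass (log2 fold change 0.49, SE 0.28, edgeR adjusted p = 0.406).

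The 3 chains of complement C1q, which assemble into a single protein, kept to a common pattern. Their genes lie side by side on chromosome 4, with C1qb from 136880129 to 136886187, C1qc from 136889804 to 136893065 and C1qa from 136895917 to 136898803, all on the minus strand. C1qa stood at 1.29, 19.8 and 16.7 CPM in the control libraries and 1.02, 21.2 and 17.9 CPM in the knockout libraries. C1qb was at 2.14, 37.1 and 23.9 CPM in the control libraries and 0.728, 37.2 and 26.7 CPM in the knockout libraries. C1qc measured 1.62, 32.7 and 21.8 CPM in the control libraries and 2.48, 34.9 and 22.9 CPM in the knockout libraries. In all 3 chains number 1 was lowest, number 2 highest and number 3 between, in either genotype. Numbers 2 and 3 were told apart for C1qc (edgeR adjusted p = 0.00601) and not for C1qa or C1qb (edgeR adjusted p = 0.209 and 0.0729). Number 2 exceeded number 1 by 17.7-fold for C1qa, 26.1-fold for C1qb and 16.5-fold for C1qc. By genotype, blocked log2 fold changes were 0.03 (SE 0.13) for C1qa, -0.13 (SE 0.20) for C1qb and 0.17 (SE 0.12) for C1qc. Of these 0 of 3 passed, beside 3.8% of all tested genes.

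Per length, C1qb was the most abundant of the chains where the genes were well covered. Its level in control libraries 1, 2 and 3 and knockout libraries 1, 2 and 3 was 1.97, 34.1, 21.97, 0.669, 34.2 and 24.5 RPKM, beside 1.24, 19.1, 16.0, 0.980, 20.4 and 17.2 RPKM for C1qa. For C1qc it was 0.841, 16.9, 11.3, 1.28, 18.1 and 11.8 RPKM. The order C1qb over C1qa over C1qc held in every library except knockout library 1, where C1qc was highest and C1qb lowest.

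Genes of immunoreceptor signalling, by which microglia sense lipids, debris and antibody, were not called by genotype either. With the block, 3.8% of all tested genes were. Trem2, a lipid-sensing receptor, and Tyrobp, the adaptor through which it signals, form a receptor pair at the cell surface. Trem2 stood at 0.775, 12.9 and 5.52 CPM in the control libraries and 0.255, 10.3 and 6.00 CPM in the knockout libraries. Tyrobp read 0.960, 17.6 and 8.03 CPM in the control libraries and 1.27, 16.6 and 10.1 CPM in the knockout libraries. Both were highest in number 2, and number 3 was lower than number 2 for Trem2 by 1.99-fold and for Tyrobp by 1.90-fold (edgeR adjusted p = 0.0145 and 0.00270). Trem2 had the most negative blocked change of the members (log2 fold change -0.29, SE 0.25, edgeR adjusted p = 0.599, 95% interval -0.84 to 0.26), lower in knockout libraries 1 and 2 and higher in knockout library 3 than in their controls. Fcer1g, the common Fc receptor gamma chain, Inpp5d, the lipid phosphatase SHIP1 that restrains this signalling, and Plek, a substrate of protein kinase C, had blocked log2 fold changes of 0.09, -0.05 and 0.04. Between numbers 2 and 1 they differed by 17.7-, 6.68- and 11.0-fold. Plek shares 4.44% of its exon bases with Cnrip1 on the opposite strand.

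The 7 lysosomal and phagocytic genes were the most abundant group in summed CPM. By number 7 of 7 were called, beside 51.2% of all tested genes. By genotype with the block 0 of 7 were called, beside 3.8% of all tested genes. The group summed to 80.6, 453 and 281 CPM in the control libraries and 92.5, 457 and 321 CPM in the knockout libraries. Lgmn, the lysosomal protease legumain, is also made outside the myeloid lineage and varied least in this group. Lgmn stood at 53.6, 146 and 115 CPM in the control libraries and 64.0, 142 and 131 CPM in the knockout libraries, a 2.46-fold span between numbers 2 and 1. It alone made up 37.3% of the summed members in control library 1 and 42.4% in knockout library 1, against 11.4% and 11.3% in the libraries numbered 2. Without Lgmn the members summed to 90.2, 1139.5 and 683 CPM in the control libraries and 87.0, 1111 and 796 CPM in the knockout libraries. Its blocked change by genotype had the smallest standard error of the members (log2 fold change 0.13, SE 0.06, edgeR adjusted p = 0.313, 95% interval -0.01 to 0.27).

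Ctss, cathepsin S, is a protease of antigen-presenting cells. Ctss stood at 2.40, 52.9 and 31.2 CPM in the control libraries and 2.51, 51.0 and 41.2 CPM in the knockout libraries. Number 2 was 21.2-fold and number 3 14.6-fold above number 1. Lyz2, the lysozyme of macrophages, has a near-identical copy, Lyz1, so reads may be divided between them. Lyz2 was at 1.77, 11.8 and 8.45 CPM in the control libraries and 1.31, 18.6 and 8.53 CPM in the knockout libraries (log2 fold change 0.18, SE 0.20, edgeR adjusted p = 0.700). Its knockout library was above control in number 2, below it in number 1 and level with it in number 3. Cd68, a lysosomal glycoprotein, differed 4.00-fold between numbers 2 and 1. Laptm5, a lysosomal membrane protein of blood cells, did so by 13.2-fold, Mpeg1, the pore-forming protein perforin-2, by 19.7-fold and Unc93b1, which carries Toll-like receptors to endosomes, by 8.61-fold. Blocked log2 fold changes in the group ranged from 0.03 (Laptm5) to 0.18 (Lyz2).

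Markers shared by all leukocytes or all myeloid cells followed the same order of numbers. Ptprc encodes CD45, the phosphatase on every nucleated blood cell. Ptprc stood at 3.10, 35.1 and 25.3 CPM in the control libraries and 3.24, 39.0 and 28.1 CPM in the knockout libraries. Aif1, the calcium-binding protein IBA1 by which microglia are stained, was among the scarcest members. Aif1 read 0.406, 2.17 and 1.06 CPM in the control libraries and 0.291, 1.92 and 1.36 CPM in the knockout libraries. Both genes were lowest in number 1 and highest in number 2, and both sets of groups overlapped. Cd53, a leukocyte tetraspanin, and Ly86, a partner of the Toll-like receptor homologue RP105, differed 16.6- and 17.9-fold between numbers 2 and 1. Numbers 2 and 3 were told apart for Ptprc and Cd53 (edgeR adjusted p = 0.00653 for both). They were not for Aif1 and Ly86 (edgeR adjusted p = 0.202 and 0.0832). Blocked log2 fold changes by genotype were 0.13 for Ptprc, -0.04 for Aif1, -0.11 for Cd53 and 0.28 for Ly86. Of these 0 of 4 passed, beside 3.8% of all tested genes.

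The chemokines Ccl3 and Ccl4, signals released by activated macrophages and microglia, were the most abundant members per length in the libraries numbered 2 and 3. Ccl3 stood at 7.93, 113 and 58.2 CPM in the control libraries and 8.66, 109.9 and 62.9 CPM in the knockout libraries. Ccl4 stood at 8.41, 115 and 67.9 CPM in the control libraries and 7.06, 99.8 and 80.3 CPM in the knockout libraries. Same-numbered libraries were close for both. Mean levels in numbers 1, 2 and 3 were 11.7, 162 and 112 RPKM for Ccl4 and 10.8, 145 and 79.1 RPKM for Ccl3. Lgmn followed them per length in numbers 2 and 3, at 62.1 and 52.8 RPKM, and came first in number 1, at 25.3 RPKM. By genotype Ccl3 had a blocked log2 fold change of 0.06 (SE 0.07, 95% interval -0.09 to 0.21).

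The border macrophage markers among the members gave less even values. Mrc1 is the mannose receptor CD206. Mrc1 stood at 0.443, 12.3 and 7.50 CPM in the control libraries and 0.218, 11.1 and 12.2 CPM in the knockout libraries. The libraries numbered 1 held 12 and 6 counts, and number 2 was 35.01-fold above number 1. The difference by genotype did not pass (log2 fold change 0.16, SE 0.24, edgeR adjusted p = 0.780). Pf4, platelet factor 4, is also a product of megakaryocytes. Pf4 read 0.369, 0.572 and 0.813 CPM in the control libraries and 0.0364, 0.356 and 2.08 CPM in the knockout libraries, from counts of 10, 15 and 23 against 1, 10 and 55. Its highest library was knockout library 3 and its lowest knockout library 1, and at these counts a difference by genotype was not detectable (95% interval of the log2 fold change -1.62 to 1.45).

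Between the libraries numbered 2 and 3, which both held clear microglial signal, the members did not all shift alike. Of 35 members, 20 were lower in number 3, 2 were higher and 13 did not pass, with number 3 at a median of 0.681 times number 2. Of all tested genes, 19.2% were lower and 20.3% higher in number 3. The 2 higher members were Tmem119 (3.28-fold, edgeR adjusted p = 0.0268) and Olfml3. Cd68 and Mpeg1 were the lowest, at 0.489 and 0.493 times their level in number 2. Csf1r, C1qa, Spi1, P2ry12, Mrc1 and Siglech were among those that did not pass.

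**Figure D3:**
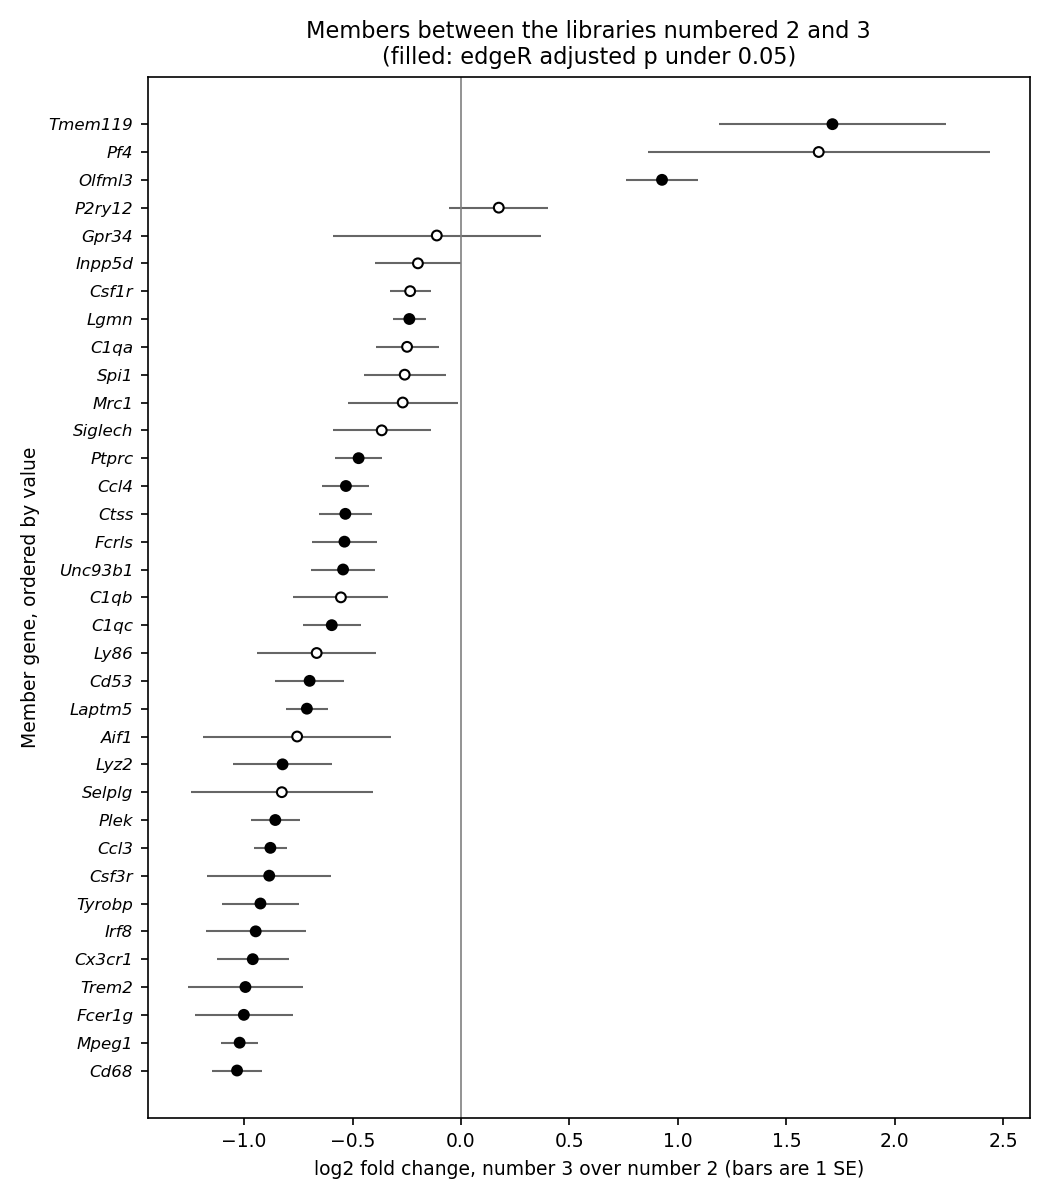
Log2 fold change of each member in the libraries numbered 3 over those numbered 2, from the blocked edgeR fit, with bars of 1 SE and members ordered by value. Filled points passed an adjusted p of 0.05, with 20 below 0 and 2, Tmem119 and Olfml3, above 0.

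Genes of the same cells outside the 35 members were read from the same fit. Of 56 other microglia and myeloid genes tested, 0 rose and 0 fell by genotype with the block, beside 3.8% of all tested genes called. The median log2 fold change of the 56 was 0.01. By number 52 of 56 were called, beside 51.2% of all tested genes, and number 2 stood at a median of 8.94 times number 1. Fcgrt, the neonatal Fc receptor, was nearest to a call by genotype (edgeR adjusted p = 0.138), followed by the phagocytic receptor Mertk and by Dock8, an activator of the GTPase CDC42. Adgre1, the macrophage antigen F4/80, is given as an example chosen after its values were seen. Adgre1 stood at 1.55, 33.4 and 18.2 CPM in the control libraries and 1.31, 30.2 and 21.3 CPM in the knockout libraries. Of 26 genes of activated or white matter microglia, 0 passed by genotype with the block and 24 were called by number. Of all tested genes, 3.8% and 51.2% were so called. Within that list of 26, 2 genes are named here. The lysosomal protease gene Ctsd (log2 fold change 0.15, edgeR adjusted p = 0.0720) and Spp1, osteopontin (0.44, edgeR adjusted p = 0.0850), had the smallest p. Spp1 read 3.06, 45.1 and 23.4 CPM in the control libraries and 3.24, 74.3 and 29.2 CPM in the knockout libraries.

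Of 12 border and tissue macrophage genes, 9 passed the expression filter. With the block 1 rose, 0 fell and 8 did not pass, where 3.8% of all tested genes were called. The gene that rose was Stab1, a scavenger receptor of macrophages and of some endothelium. Stab1 stood at 4.76, 23.6 and 20.6 CPM in the control libraries and 7.35, 33.2 and 34.1 CPM in the knockout libraries. It was 1.54, 1.41 and 1.66 times higher in the knockout library of each pair, while the groups overlapped (log2 fold change 0.62, SE 0.10, edgeR adjusted p = 0.0132). Without the block it did not pass (edgeR adjusted p = 1.000), and with the block it lost the call without the libraries numbered 3 (edgeR adjusted p = 0.112). In the same comparison 13 of 19 endothelial markers rose, their sum in the knockout library being 1.496, 1.33 and 2.44 times that of its control, and their part in the Stab1 result was not tested. F13a1, coagulation factor XIII of macrophages, did not pass (edgeR adjusted p = 0.142).

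Ligands of the microglial receptors, which other brain cells supply, had smaller median differences between numbers than the members. Number 2 over number 1 ranged from 0.452- to 5.59-fold, with a median of 0.993 against 13.9 for the members. Number 3 over number 1 ranged from 0.908- to 6.96-fold, with a median of 1.53 against 8.41. By number 10 of 13 ligand genes tested were called, beside 51.2% of all tested genes. Csf1, a ligand of Csf1r, stood at 43.2, 69.3 and 62.4 CPM in the control libraries and 49.1, 57.5 and 85.4 CPM in the knockout libraries. It spanned 1.38-fold between numbers 2 and 1, where Csf1r spanned 25.6-fold. Per length Csf1 stood at 8.18, 13.1, 11.8, 9.30, 10.9 and 16.2 RPKM and Csf1r at 0.837, 19.5, 15.3, 0.649, 18.6 and 17.1 RPKM, in control libraries 1 to 3 and then knockout libraries 1 to 3. The ligand thus exceeded the receptor in the libraries numbered 1 and lay below it in those numbered 2 and 3. Il34, the other ligand, and Cx3cl1, the ligand of Cx3cr1, were lower in number 2 than in number 1, at 0.452 and 0.587 times. Of 13 ligand genes tested, 1 rose by genotype with the block, 0 fell and 12 did not pass. Of all tested genes, 3.8% were called there. The ligand that rose was Gas6, which binds the phagocytic receptors Mertk and Axl. Gas6 stood at 33.2, 38.8 and 40.7 CPM in the control libraries and 43.9, 51.0 and 51.4 CPM in the knockout libraries, all knockout libraries lying above all control libraries (log2 fold change 0.38, SE 0.07, edgeR adjusted p = 0.0210). Without the block Gas6 did not pass (edgeR adjusted p = 1.000), and with it the call was lost without the libraries of any 1 number (edgeR adjusted p = 0.0559, 0.0589 and 0.0695). Csf3, the ligand of Csf3r, and Cxcl12, a chemokine that holds myeloid cells in the marrow, came next and did not pass (edgeR adjusted p = 0.205 and 0.311). The 3 ligands Csf1, Il34 and Cx3cl1 were singled out after their values were seen.

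Markers of other cell types ordered the numbers differently from the members. Endothelial markers summed to 210.0, 114 and 277 CPM in the control libraries and 314, 152 and 674 CPM in the knockout libraries, lowest in number 2 and highest in number 3 within either genotype. Pericyte and fibroblast markers, among them Pdgfra, which OPCs also express, shared that order, with 974, 467 and 1649 CPM in the control libraries and 1014, 564 and 2304 CPM in the knockout libraries. OPC and oligodendrocyte markers were lowest in number 2, with 4692, 3448 and 4136 CPM in the control libraries and 5897, 2994 and 4292 CPM in the knockout libraries, and neuronal markers highest there, with 4916, 6595 and 4638 CPM in the control libraries and 4272, 5973 and 4029 CPM in the knockout libraries. Number 2 stood at a median of 13.9 times number 1 for the members, 0.332 times for endothelial, 0.584 times for OPC and 1.52 times for neuronal genes. By genotype, with the block, 13 of 19 endothelial, 7 of 12 choroid plexus and ependymal, 6 of 15 astrocyte and 3 of 19 pericyte and fibroblast markers rose. Of the neuronal markers 6 of 18 fell. Called in either direction were 0 of 35 members and likewise 0 of 17 OPC and oligodendrocyte markers tested. Of all tested genes, 3.8% were called there in either direction. The difference between these lists and the members was not tested.

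**Figure D4:**
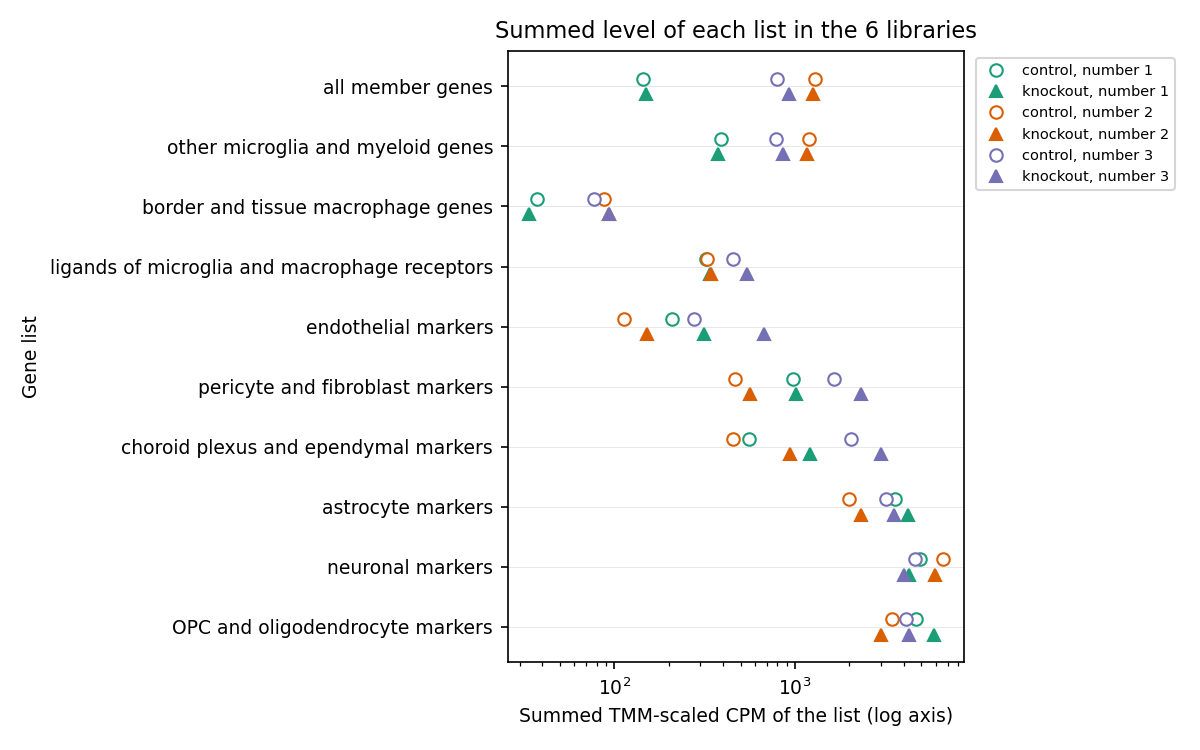
Summed TMM-scaled CPM of each gene list in each library on a log axis, with open circles for control and filled triangles for knockout libraries and 1 colour per replicate number. The members (top) span from 144 to 1286 CPM with same-numbered libraries together, while endothelial markers lie higher in each knockout library than in its same-numbered control.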

How the data were processed

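The deposited values are raw counts of read pairs per gene symbol, 1 table per library. Per the submitters' processing notes the mm10 build, DESeq2 1.26.0, HTSeq 0.12.4 and HISAT2 2.2.1 were used, with no roles stated. The sources used here do not give the annotation, parameters or strand setting. Library preparation marked strand with dUTP, per the labels' protocols. The 5 summary entries of each table (27.7% to 31.1% of read pairs) entered neither library sizes nor tests. Every per-sample column was used. The members and lists were chosen with earlier results of these data known.

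Deposited counts were given TMM factors and fitted in edgeR 4.0.16 (R 4.3.3, quasi-likelihood, two-sided) over all 15906 genes that passed its expression filter, with genotype as the only term and Benjamini-Hochberg adjustment at 0.05. The same fit was run with the replicate number as a block. Deviations from the group mean of log2 CPM correlated at 0.712, 0.682 and 0.654 between same-numbered libraries (0.698, 0.675 and 0.652 without the members), so the numbers were taken to pair them. Differences between numbers came from the block terms, a comparison added after seeing the data. Intervals use the t quantile of the moderated degrees of freedom. Exon lengths and positions are from GENCODE M21 (GRCm38), and RPKM is scaled CPM per kilobase of merged exons. Genes with full values were a set of 18 members, any called, and the 3 largest blocked changes in each direction, with up to 3 genes per list by smallest blocked p. Olfml3 and Lgmn were also given in full, outside this rule and with their values known. Alternatives were other scalings, filters, DESeq2 1.42.0, limma-voom (limma 3.58.1), GC correction in 20 bins and left-out libraries. The fits were also run on simulated counts whose means followed replicate number, so that run cannot judge between block and no block.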

Additional observations from a re-analysis of the deposited data

How the results depend on the processing

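The count of members called by genotype was 0 in all 25 alternatives, which include the fits with a replicate block. By number, 35 of 35 were called, and the count was 25 (of all tested genes, 40.7%) without number 1, 34 (of all tested genes, 36.4%) without number 2, 32 (of all tested genes, 30.3%) without number 3, 32 (of all tested genes, 45%) with DESeq2, 34 (of all tested genes, 51.9%) with limma-voom and 28 of 28 (of all tested genes, 59.2%) at a mean of at least 5 CPM. Over all tested genes the count by genotype was 20 with DESeq2 and, with the replicate block, 604, 573 with DESeq2 size factors, 502 with library totals (271 rises, 231 falls, against 250 and 354), 536 with upper quartile (289 rises, 247 falls), 1034 with no filter, 435 at a mean of at least 5 CPM, 680 with DESeq2, 712 with limma-voom, 385 with GC correction (199 rises, 186 falls), and 448, 521 and 174 without numbers 1, 2 and 3. The count by number fell to 4839 without number 3, which leaves 4 libraries. Leaving out a single library without the block moved the median of the members from -0.49 (without knockout replicate 2) to 0.77 (without control replicate 2), with 0 calls in each. Uncalled log2 fold changes changed sign, and not only those near 0. Among those that did, without the block and with all libraries, were Csf3r at 0.40, Lyz2 at 0.37, Cx3cr1 at 0.35 and Trem2 at -0.21. When each library was left out in turn without the block, ranges were Csf3r -0.23 to 1.61, Cx3cr1 -0.41 to 1.299, Trem2 -1.03 to 0.81, Spi1 -0.57 to 0.55, C1qb -0.62 to 0.72, Csf1r -0.52 to 0.59, C1qa -0.45 to 0.63, C1qc -0.57 to 0.77, Lgmn -0.21 to 0.42, Ccl3 -0.74 to 0.87, Mrc1 -0.33 to 0.98 and Lyz2 -0.58 to 0.89. Without the block, C1qb was 0.031 with TMM, 0.032 with DESeq2 size factors, 0.065 with library totals, 0.057 with upper quartile, 0.028 with no filter on low counts, 0.056 with the 5 CPM minimum and 0.031 with DESeq2, and Csf1r 0.030 with TMM, 0.030 with DESeq2 size factors, 0.063 with library totals, 0.054 with upper quartile, 0.026 with no filter on low counts, 0.055 with the 5 CPM minimum and 0.030 with DESeq2. C1qa was -0.051 with limma-voom and Mrc1 -0.14 with limma-voom, also without the block. With the block, C1qb was 0.027 with limma-voom and 0.084 without number 1, Csf1r 0.00372 with library totals, 0.000272 with upper quartile, 0.029 with limma-voom and 0.054 without number 1, Spi1 0.00627 without number 1, C1qa -0.025 without number 2 and -0.026 without number 3, Mrc1 -0.29 without number 3 and Lyz2 -0.15 without number 2. The cause of these changes was not tested. In libraries numbered 1 low counts limit the precision of single members.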

Other observations

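The cytokine genes Il1a, Tnf and Il1b did not share the order of numbers seen in most members. Il1a, a cytokine released by microglia and damaged cells, read 8.49, 31.9 and 91.0 CPM in control libraries 1, 2 and 3 and 5.39, 30.8 and 97.9 CPM in knockout libraries 1, 2 and 3. It was highest in the libraries numbered 3, where most members were below their level in number 2. Tnf read 6.02, 41.8 and 55.0 CPM and 4.48, 45.3 and 56.4 CPM in the same order, also highest in number 3. Il1b was level between numbers 2 and 3, at 10.1, 43.7 and 43.5 CPM in control and 7.61, 46.4 and 47.8 CPM in knockout libraries. By genotype, blocked log2 fold changes were -0.13 for Il1a, -0.04 for Tnf and -0.03 for Il1b, with edgeR adjusted p of 0.630, 0.896 and 0.926. These 3 genes were singled out after their values were seen.

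Transcripts of blood cells other than macrophages were also read. Of 16 monocyte and neutrophil genes 4 passed the expression filter, and the 16 summed to 3.47, 3.43 and 32.4 CPM in the control libraries and 5.61, 4.20 and 35.3 CPM in the knockout libraries. Most of the sum in number 3 was 1 gene, Mmp9, a gelatinase also made by other cells. Mmp9 stood at 1.40, 1.259 and 28.9 CPM in the control libraries and 1.38, 1.57 and 28.2 CPM in the knockout libraries, and it was the only one of the 4 called between numbers 3 and 1 (20.4-fold). Of 13 lymphocyte and mast cell genes 7 passed the filter, and the 13 summed to 35.02, 32.1 and 45.4 CPM in the control libraries and 27.8, 34.7 and 57.9 CPM in the knockout libraries. Kit, a stem cell factor receptor not restricted to blood cells, made up most of that sum, at 28.7, 26.5 and 42.4 CPM in the control and 23.7, 27.6 and 53.5 CPM in the knockout libraries. Red blood cell genes, of which 2 of 7 passed the filter, summed to 22.9, 6.29 and 4.14 CPM in the control libraries and 23.3, 5.02 and 5.93 CPM in the knockout libraries and were highest in number 1, the number with the least microglial transcript. Alas2, an enzyme of heme synthesis, was nearly all of this sum, and the globin genes Hba-a1, Hba-a2, Hbb-bs and Hbb-bt were listed at 0 in every library. Alignments that were not unique (3.34% to 3.54% per library) were set apart from the gene counts. Whether globin reads were among them was not tested, so a 0 here need not mean absence. By genotype, 0 of the 4, 7 and 2 genes tested in these 3 lists passed with the block in edgeR, beside 3.8% of all tested genes.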
